A study of Mus musculus with 45 samples.

Results

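In wild type mouse cells a group of 35 genes was switched up as embryonic stem cells (ESCs) formed embryoid bodies (EBs) and was lowered again 1 day later. These genes were chosen by their wild type values: in the deposited normalized table (log2 signal) the mean of the 4 d2 EB arrays was at least 1 above both the mean of the 4 ESC arrays and the mean of the 4 d3 EB arrays, with a detection p-value under 0.01 on 3 or more of the d2 arrays and 1 probe per gene. They were 35 of 19057 genes in the table, and all 35 were among the 9627 genes tested in the knockouts. The d2 peak in wild type is therefore how the genes were picked and not a finding, and what was measured of them in the knockouts, which the choice did not use, is the subject of the results. Another 4 genes met the same values but carried names that the choice left out (Pou3f1, Sall2, Cldn5 and Fgfbp3). Those names were of matrix, adhesion, Wnt, Fgf and respiratory chain families and of single known epiblast genes.

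Transcript levels were measured on 45 Illumina MouseWG-6 v2.0 bead arrays in 12 groups of 3 or 4 arrays, which are 4 genotypes at each of 3 stages: ESCs, and EBs after 2 days (d2) and 3 days (d3). All lines were feeder-free ESCs of a 129/Sv//Ev background grown in serum with LIF, the cytokine that sustains self-renewal, and EBs were grown from hanging drops without LIF. Wild type arrays came from 4 lines (CCE, CCB, CCH and CCF). Smad2 KO arrays came from 4 lines homozygous for the Smad2 tm1Rob allele (KT11, KT12, KT15 and KT17), Smad3 KO arrays from clones of the single line CCE in which Smad3 exon 1 was deleted with a CRISPR nickase, and Smad2/3 DKO arrays from clones of the single Smad2 KO line KT15 with the same Smad3 deletion. Thus Smad3 KO clones share 1 parent line and Smad2/3 DKO clones share another, and in a comparison of these groups with each other parent line and genotype cannot be told apart. Both parent lines were themselves measured at each stage, on 1 array each. The EBs collected per sample numbered 1250 in wild type and Smad3 KO at both EB stages, 2500 in Smad2 KO at d2, 2500 or 5000 in Smad2/3 DKO at d2, and 5000 in both at d3. EB number and genotype therefore cannot be told apart where Smad3 KO is compared with Smad2 KO or Smad2/3 DKO, nor EB number and stage where d2 is compared with d3 in Smad2 KO.

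Smad2 and Smad3 are the transcription factors that carry Nodal and Activin signals from their receptors to the nucleus, where they act with Smad4 and with stage-specific partners. On leaving self-renewal, ESCs lower naive pluripotency genes and pass through a formative state that corresponds to the early post-implantation epiblast, before Nodal and Wnt signalling start the primitive streak programme from which mesoderm and endoderm arise. Whether a gene that is high at d2 and low at d3 in wild type EBs belongs to the window between these states was not tested. In bulk samples of this kind fewer cells of a type and less RNA per cell cannot be told apart.

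The 35 genes have few roles in common. By textbook role they were sorted, after their names were seen, into 10 genes for secreted and cell surface proteins, 7 for enzymes and carriers, 11 for vesicle, cytoskeleton and signalling proteins and 7 for nuclear proteins, RNAs and others. Several are best known from neurons, such as Ntrk2, the receptor of brain-derived neurotrophic factor, Grm6, a glutamate receptor of the retina, and the synaptotagmins Syt4 and Syt11. Of 15 marker lists of embryonic and extra-embryonic cell types and pathways, only the fibroblast list held a member (Dcn), while the other fibroblast markers Col1a1, Col1a2, Col3a1, Lum and Postn were not detected in any of the 12 groups and Thy1 was detected on all arrays of each.

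The sequence upstream of the start site is shown for 4 genes that the knockout results turn on: Miat, whose levels differed most between knockouts at d3, and Cbln4, Mmp25 and Ntrk2, which differed between knockouts at d2. Sequences are the 250 bases before the RefSeq start (GRCm38.p6), written 5′ to 3′ on the gene's strand, with each CAGAC (the Smad box, searched on both strands, so that GTCTG on the printed strand is also marked) in capitals.
Miat (chr5:112228949-112229198, minus strand): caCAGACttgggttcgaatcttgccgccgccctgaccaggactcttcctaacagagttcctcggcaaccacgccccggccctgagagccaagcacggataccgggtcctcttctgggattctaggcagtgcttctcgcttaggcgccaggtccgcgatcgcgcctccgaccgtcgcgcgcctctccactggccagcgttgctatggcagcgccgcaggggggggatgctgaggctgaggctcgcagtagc
Cbln4 (chr2:172043467-172043716, minus strand): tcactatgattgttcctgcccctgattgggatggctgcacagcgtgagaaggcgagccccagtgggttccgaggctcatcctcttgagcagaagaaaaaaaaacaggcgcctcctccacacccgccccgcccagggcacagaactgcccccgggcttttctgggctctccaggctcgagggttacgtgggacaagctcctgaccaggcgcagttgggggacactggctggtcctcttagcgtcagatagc
Mmp25 (chr17:23645270-23645519, minus strand): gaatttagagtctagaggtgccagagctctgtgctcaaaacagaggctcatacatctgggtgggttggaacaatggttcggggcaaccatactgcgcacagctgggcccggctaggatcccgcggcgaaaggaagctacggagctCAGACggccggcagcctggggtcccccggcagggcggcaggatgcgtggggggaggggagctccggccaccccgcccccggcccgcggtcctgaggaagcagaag
Ntrk2 (chr13:58806319-58806568, plus strand): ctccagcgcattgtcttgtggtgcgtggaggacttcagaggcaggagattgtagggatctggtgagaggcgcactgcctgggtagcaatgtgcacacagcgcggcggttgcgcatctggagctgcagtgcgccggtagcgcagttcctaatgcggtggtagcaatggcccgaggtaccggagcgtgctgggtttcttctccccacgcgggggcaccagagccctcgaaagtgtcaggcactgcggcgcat
The Miat and Mmp25 windows each held 1 CAGAC, and the Cbln4 and Ntrk2 windows held 0. A RefSeq promoter was at hand for 25 of the 35 genes, and 10 of these 25 (40%) held CAGAC within 250 bases, beside 42.1% of 27025 promoters of all genes. TAATCC, the Otx motif, was in 2 of the 25 (8%; Prom2 and Synm) beside 6.38% of all, and the Smad palindrome GTCTAGAC and the octamer ATGCAAAT were in 0 of the 25, beside 0.174% and 1.61% of all. These shares describe the letters in this window and say nothing of binding.

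Before the results, 4 of the 33 knockout libraries have to be named because they stood against their labels, 3 by the Smad3 transcript and 3 by stage. Smad3 was not detected where it was deleted (4.83 to 5.62 on the log2 scale) and lay at 7.67 to 9.83 on the wild type arrays. Yet it was detected at 9.75 on the fourth ESC array of Smad3 KO and at 9.46 on the fourth d2 array of Smad2/3 DKO, and was not detected on d2 Smad2 KO replicate 4 (5.19). ESC Smad3 KO replicate 4 lay on the EB side of the first principal component, and d2 and d3 Smad2 KO replicate 4 lay on the ESC side. The counts of genes called in each comparison are given with all libraries as labelled and, second, without these 4, and the libraries of the d2 and d3 Smad3 KO groups and of the d3 Smad2/3 DKO group are untouched by that choice.

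In wild type the tallest peaks were those of Miat, a long non-coding RNA, which was 2.88 higher at d2 than in ESCs and 2.31 higher than at d3, and of Cbln4, a secreted synapse organizer of the cerebellin family, which was 2.96 and 2.12 higher (deposited log2 means, with no test because these values made the choice). Among the other tall peaks the smaller of both differences was 1.94 for Ugt8a, the ceramide galactosyltransferase, 1.88 for Tmem54, a membrane protein, 1.62 for Mfap3l, a membrane glycoprotein, and 1.59 for Ttbk1, a tau tubulin kinase. It was 1.55 for Syt11, 1.49 for Jakmip2, a microtubule-associated coiled-coil protein, with the membrane protein Tmem254a between them, and 1.45 for Gdf1, a TGF-β family ligand that works with Nodal and whose transcript also encodes Cers1. The members nearest the threshold were Mmp25, a membrane-anchored metalloprotease (1.03), Rbp7, a retinoid carrier (1.02), and Ssbp2, a cofactor of LIM-domain complexes (1.02), and the nearest genes outside it were Frmd5 (0.99), Tspan4 (0.99) and Tmem130 (0.98). In ESCs 15 of the 35 genes were detected on none of the 4 wild type arrays, at d2 34 were detected on all 4 (Dcn on 3), and at d3 13 were. Of 48 further probes for 25 of the genes, 10 probes of 9 genes were detected at d2 in wild type, and all 10 had a d2 mean above those of ESCs and d3, 7 of them by at least 1. These values are from the arrays that made the choice, and only probes detected at d2 were kept, so they are no independent support.

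The wild type lines did not share the return at d3. The mean level of the 35 genes (background-corrected, quantile-normalized log2 signal, the scale of all levels from here on) was 6.78 to 6.96 on the ESC arrays and 8.85 to 8.94 at d2. At d3 it was 6.73 in line CCE, 7.01 in CCH and 7.12 in CCF, and 8.36 in CCB. CCB thus stayed near its d2 level, with a median d2 to d3 difference of 0.54 beside 1.74 to 2.16 in the other lines, and 30 of the 35 genes lower at d3 than at d2 in CCB beside 35 of 35 in each other line. When each line was left out of the choice in turn, the genes chosen on the other 3 peaked by at least 1 on both sides in the line left out for 18 of 33 (CCE), 20 of 27 (CCH) and 18 of 36 (CCF), and for 6 of 63 in CCB, beside 0.603% to 1.54% of all genes. Primitive streak and mesoderm genes (17 measured, such as T, Mixl1 and Eomes) had a mean level of 8.69 in CCB at d3 and of 10.58 to 10.82 in the other lines, and the part of this difference in that of the 35 genes was not tested.

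**Figure D1:**
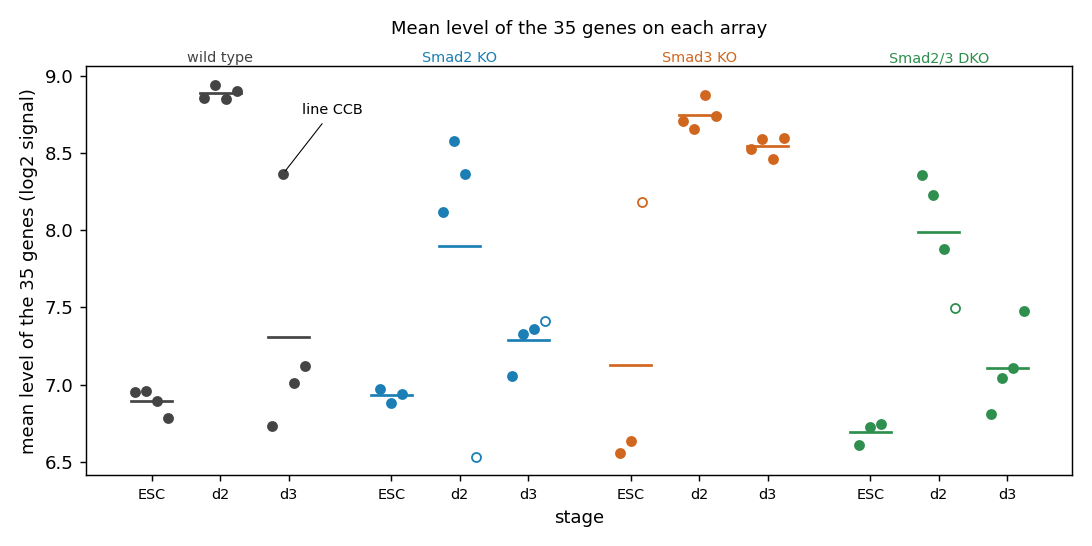
Mean log2 signal of the 35 genes (y axis) on each of the 45 arrays (points) by genotype and stage (x axis), with lines at the group means and open points for the 4 libraries that stood against their labels. Wild type d3 lies at 6.73 to 7.12 apart from line CCB at 8.36, and Smad3 KO d3 lies at 8.46 to 8.60.

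In each knockout the mean level of the 35 genes was higher at d2 than in ESCs, apart from libraries that stood against their labels, and among the knockouts it was lower again at d3 in Smad2 KO and Smad2/3 DKO and near its d2 level in Smad3 KO. Mean levels were 6.88 to 6.97 in Smad2 KO ESCs, 6.56 and 6.64 in Smad3 KO ESCs (8.18 on replicate 4) and 6.61 to 6.74 in Smad2/3 DKO ESCs. At d2 they were 8.11 to 8.58 in Smad2 KO (6.53 on replicate 4), 8.65 to 8.87 in Smad3 KO and 7.88 to 8.36 in Smad2/3 DKO (7.50 on replicate 4). At d3 they were 7.06 to 7.36 in Smad2 KO (7.41 on replicate 4), 8.46 to 8.60 in Smad3 KO and 6.81 to 7.48 in Smad2/3 DKO. No Smad3 KO array thus came within the range of the other knockouts. Beside their own parent lines, Smad3 KO clones at d3 lay above CCE (6.73), and Smad2/3 DKO clones lay on both sides of KT15 (7.32). The CCE arrays were among those that made the choice, which favours a low CCE level at d3, while KT15 took no part in it. When the wild type rule was applied to each knockout's own means in the deposited table, 7 of the 35 genes peaked at d2 in Smad2 KO (17 without the 4 libraries), 0 in Smad3 KO (0) and 11 in Smad2/3 DKO (13), beside 0.135% (0.582%), 0.156% (0.104%) and 0.976% (1.30%) of all tested genes.

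**Figure D2:**
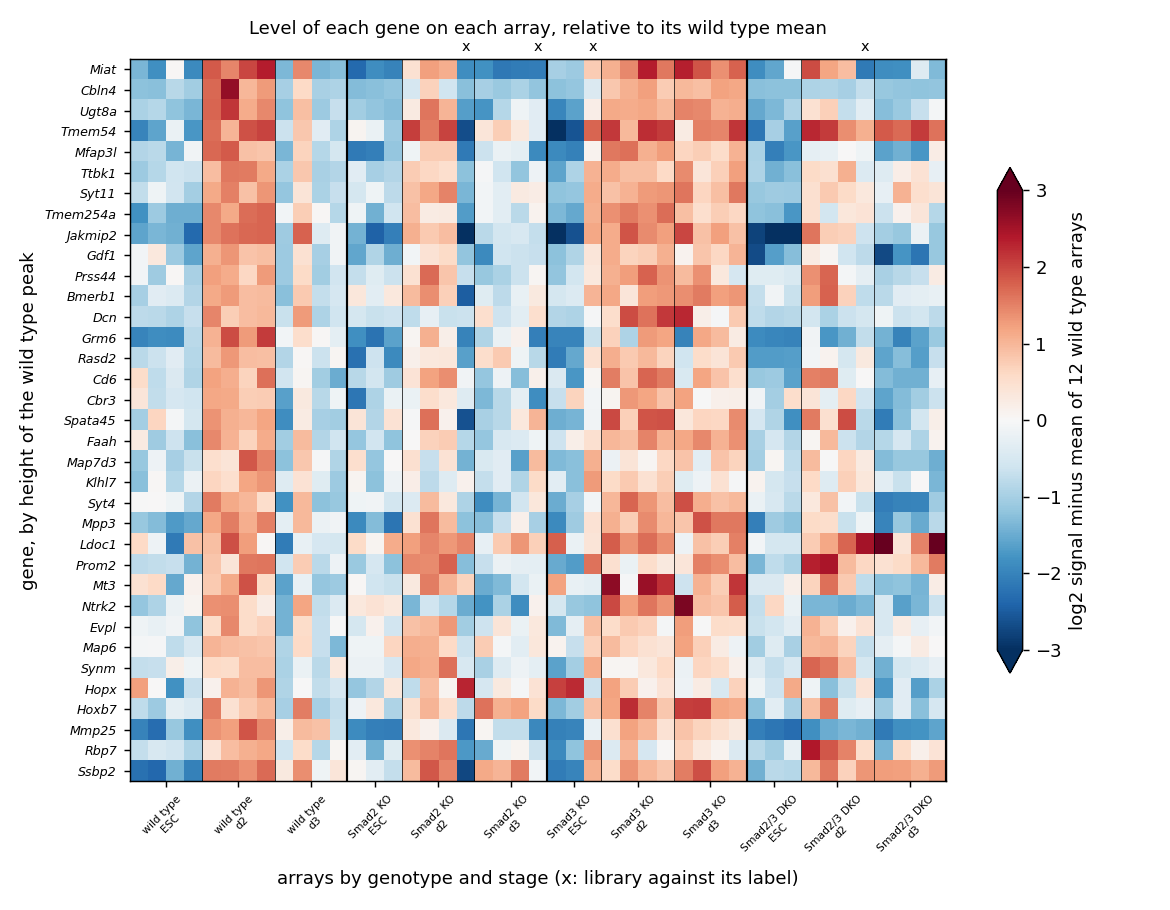
Level of each of the 35 genes (rows) on each of the 45 arrays (columns, by genotype and stage), as log2 signal minus the gene's mean over the 12 wild type arrays, with an x above the 4 libraries that stood against their labels. The Smad3 KO d3 columns stay red for most genes, while the d3 columns of wild type lines other than CCB, of Smad2 KO and of Smad2/3 DKO are mostly blue, and Ldoc1, Ssbp2 and Tmem54 stay red in Smad2/3 DKO at d3.

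The rise from ESCs to d2 was tested within each knockout with limma across all probes, and a gene was called at a Benjamini-Hochberg adjusted p-value under 0.05. In Smad3 KO 17 of the 35 genes rose and 0 fell, where 2.24% of all 9627 genes rose. In Smad2/3 DKO 14 rose and 1 fell, where 7.75% of all genes rose, and in Smad2 KO 1 rose (Mpp3), where 2.77% did. Without the 4 libraries 30 genes rose in Smad3 KO and 1 fell (Hopx), beside 10.7% of all genes rising, 22 rose in Smad2/3 DKO and 1 fell (Ntrk2), beside 13%, and 24 rose in Smad2 KO and 1 fell (Ntrk2), beside 15.3%. Single libraries moved these counts. The Smad2 KO count was 21 without d2 Smad2 KO replicate 4, 7 without ESC Smad3 KO replicate 4, 5 without d3 Smad2 KO replicate 4, 2 without d3 Smad2 KO replicate 1, ESC Smad3 KO replicate 3 or d2 Smad2/3 DKO replicate 1, 2 or 4, and 0 without ESC Smad2 KO replicate 2 or 4 or d2 Smad2 KO replicate 2 or 3, and it was 5 with clone as a block. The Smad3 KO count was 26 without ESC replicate 4, 4 without ESC replicate 2 or 3, and 9 and 11 without d2 replicates 3 and 4. The Smad2/3 DKO count was 4, 5 and 3 without ESC replicates 2, 3 and 4 and 5, 8 and 7 without d2 replicates 1, 2 and 3. The median rise of the 35 genes was 1.14 in Smad2 KO, 1.90 in Smad3 KO and 1.31 in Smad2/3 DKO (0.66, 1.48 and 0.69 with genes undetected in ESCs set at their lower bounds), and that of all genes 0.01 to 0.05.

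The 19 genes that rose in all 3 knockouts without the 4 libraries covered each role. The share of all genes that rose in all 3 was not computed. Among surface and secreted proteins they were Tmem54, Mfap3l, Tmem254a, Gdf1, Cd6, an adhesion receptor known from T cells, and Prom2, a prominin of membrane protrusions. Among vesicle, cytoskeleton and signalling proteins they were Ttbk1, Syt11, Jakmip2, Bmerb1, Rasd2, a small GTPase of the striatum, Mpp3, a membrane-associated scaffold protein, Evpl, a desmosomal plakin, and Synm, an intermediate filament protein. The enzymes and carriers Ugt8a, Prss44, a serine protease known from testis, and Rbp7 and, of the rest, Miat and Ssbp2 completed them. Of the 22 called genes of Smad2/3 DKO, 21 were called in Smad3 KO (95.5% of the 22 and 70% of the 30). In Smad2 KO 19 of the 22 were called (86.4% of the 22 and 79.2% of the 24). The same overlaps over all genes were not computed, so whether these shares are higher than those of other rising genes was not tested.

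Jakmip2 had the largest rise of the called genes in Smad2/3 DKO. Its level was 5.44, 5.21 and 5.12 in Smad2/3 DKO ESCs, where it was not detected, and 9.82, 8.96, 8.91 and 7.60 at d2. The groups did not overlap, and the rise was at least 3.47-fold (limma, adjusted p = 0.00731). In Smad3 KO it was 4.91 and 5.61 in ESCs (9.38 on replicate 4) and 9.33 to 10.11 at d2, a rise of 3.00 ± 0.78 (log2, SE; adjusted p = 0.0263). Tmem54 was 5.88 and 6.32 in Smad3 KO ESCs (10.64 on replicate 4) and 9.88 to 11.11 at d2, a rise of 3.14 ± 0.88 (adjusted p = 0.0371). In Smad2/3 DKO it went from 6.74, 7.90 and 7.27 to 9.96 to 11.15, a rise of 3.30 ± 0.88 (adjusted p = 0.0174). On both genes the ESC Smad3 KO replicate 4 array lay within the d2 range, apart from the other ESC arrays of its group, and both Smad3 KO calls were lost when any of 5 arrays was left out (adjusted p up to 0.243 for Jakmip2 and 0.286 for Tmem54).

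Among the other genes of largest change, Mfap3l rose by 2.68 ± 0.56 in Smad3 KO (adjusted p = 0.00652) and Spata45, a gene named from testis, by 2.61 ± 0.73 (adjusted p = 0.0374, up to 0.187 with 1 array left out). Prom2 in Smad2/3 DKO was 5.29, 5.89 and 5.71 in ESCs, not detected, and 8.99, 9.10, 7.60 and 7.27 at d2. All d2 arrays were higher, by at least 2.31-fold (adjusted p = 0.0111), and Rbp7 rose by 2.27 ± 0.70 there (adjusted p = 0.0347). Mpp3, the 1 gene called in Smad2 KO as labelled, was 5.73, 6.35 and 5.45 in ESCs, not detected, and 8.10, 9.26, 8.58 and 6.41 at d2. The last of these arrays, replicate 4, stood apart near the ESC values, and the rise was at least 2.02-fold (adjusted p = 0.0141), but the call was lost when any of 4 arrays was left out (adjusted p up to 0.0665, without d2 replicate 2).

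Ntrk2 went against the others. Its levels in Smad2/3 DKO ESCs were 6.19, 7.51 and 6.71, with detection only on the array at 7.51. At d2 in Smad2/3 DKO it was 5.53, 5.53, 5.43 and 5.54 and was not detected. It fell there by at least 1.04-fold (adjusted p = 0.0445), a call that 6 of 8 other ways of processing lost, with adjusted p-values of 0.0218 to 0.218 over these and single arrays left out. In Smad2 KO it was 7.22, 7.33 and 7.21 in ESCs, detected on 2 of 3 arrays. At d2 in Smad2 KO it was 5.53, 6.31, 6.05 and 5.41, not detected, again with no overlap. In Smad3 KO it was 6.38, 5.76 and 5.71 in ESCs, not detected, and 8.89, 8.12, 8.51 and 8.26 at d2, a rise of at least 3.02-fold (adjusted p = 0.00109). Hopx, a homeodomain protein without DNA binding, was 9.46 and 9.63 in Smad3 KO ESCs (6.76 on replicate 4) and 7.53 to 8.60 at d2, and fell by 1.52 ± 0.51 without the 4 libraries (adjusted p = 0.037).

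Whether the rise itself differed between knockouts was tested as a difference of differences. Between Smad2/3 DKO and Smad3 KO it differed for 2 genes, Ntrk2 and Cbln4, where 0.540% of all genes were called, and between Smad2 KO and Smad3 KO for Ntrk2 alone, where 0.519% were. Relative to Smad3 KO, the change of Ntrk2 from ESCs to d2 differed by -3.79 ± 0.60 in Smad2/3 DKO (adjusted p = 0.00242) and by -3.92 ± 0.60 in Smad2 KO (adjusted p = 0.00139). That of Cbln4 differed by -1.55 ± 0.36 in Smad2/3 DKO (adjusted p = 0.0449), a call that was lost when any of 29 of the 33 arrays was left out. Between Smad2/3 DKO and Smad2 KO limma called 0 of the 35 genes, none at an unadjusted p under 0.05, beside 0% of all genes, and Spata45 had the smallest p. Without the 4 libraries Mmp25 joined Ntrk2 and Cbln4 in the first pair (3 genes, beside 1.56% of all). Dcn, Tmem54, Syt4 and Tmem254a joined Ntrk2 in the second (5 genes, beside 3.46%), and 0 genes were called in the third, beside 0.0104%. In the third pair 8 genes had an unadjusted p under 0.05, a count given with no share of all genes.

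At d2 the level of 5 genes differed between Smad2/3 DKO and Smad3 KO, all lower in Smad2/3 DKO, where 8.70% of all genes differed. Cbln4 was 5.28, 5.30, 5.22 and 5.50 in Smad2/3 DKO, not detected, and 7.02, 7.28, 7.44 and 6.97 in Smad3 KO. The groups lay apart, with Smad3 KO at least 1.35-fold higher (adjusted p = 1.2e-05). Ntrk2, by the values above, was at least 3.25-fold higher in Smad3 KO (adjusted p = 2.86e-05). Mmp25 was 5.35, 5.70, 5.82 and 5.75 in Smad2/3 DKO, not detected, and 7.67, 8.39, 8.18 and 7.62 in Smad3 KO, at least 2.33-fold higher (adjusted p = 0.000757). Dcn, a small proteoglycan that binds collagen and TGF-β, was 4.96 to 5.37 in Smad2/3 DKO, not detected, and 6.43, 7.85, 7.52 and 8.02 in Smad3 KO, at least 1.63-fold higher (adjusted p = 0.000278). These 4 genes, detected on no d2 array of Smad2/3 DKO, were detected on 3 or 4 d2 arrays of Smad3 KO. Each was read on 1 probe, and the further probes of Ntrk2 and Dcn were detected on no d2 array of wild type. Faah, which breaks down anandamide, differed by -1.23 ± 0.35 (adjusted p = 0.0268). The count was 8 without d2 Smad2 KO replicate 4.

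Between Smad2 KO and Smad3 KO 3 genes differed at d2, beside 2.79% of all genes, and all were lower in Smad2 KO. Ntrk2 was at least 3.11-fold higher in Smad3 KO (adjusted p = 0.000371) and Dcn, at 5.14 to 5.64 in Smad2 KO and not detected there, at least 1.57-fold higher (adjusted p = 0.00128). Cbln4, at 5.71, 6.90, 5.62 and 4.97 in Smad2 KO, differed by -1.38 ± 0.23 from Smad3 KO (adjusted p = 0.00128). The count was 5 without ESC Smad3 KO replicate 4. Between Smad2/3 DKO and Smad2 KO limma called 0 of the 35 genes, beside 0.0104% of all genes, and Mmp25 had the smallest p. There 1 gene had an unadjusted p under 0.05, a count given with no share of all genes. Both pairs with Smad3 KO share its d2 arrays.

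Some genes were called higher, not lower, in both genotypes that lack Smad2, but these calls were made only without the 4 libraries. Of the 11 genes then called between Smad2/3 DKO and Smad3 KO (beside 11.6% of all), 3 were higher in Smad2/3 DKO. Of the 8 called between Smad2 KO and Smad3 KO (beside 9.11%), the same 3 were higher in Smad2 KO: Prom2, Synm and Rbp7. Of all genes 7.53% were higher in Smad2/3 DKO and 6.82% in Smad2 KO, while 4.09% and 2.29% were lower. The count of 3 higher among the 35 genes is thus near the share of all genes. Prom2 was 8.99, 9.10 and 7.60 in Smad2/3 DKO and 8.09, 8.09 and 8.43 in Smad2 KO, and 7.14, 6.47, 7.18 and 6.95 in Smad3 KO. Every array of the former lay above every array of the latter, by 1.63 ± 0.33 in Smad2/3 DKO (adjusted p = 0.00175) and 1.27 ± 0.33 in Smad2 KO (adjusted p = 0.0151). The lower genes were Ntrk2, Mmp25, Dcn, Cbln4, Mfap3l, Tmem254a, Rasd2 and Faah in Smad2/3 DKO, and Ntrk2, Dcn, Cbln4, Tmem254a and Mmp25 in Smad2 KO. Mmp25 alone then differed between Smad2/3 DKO and Smad2 KO, where 0.125% of all genes did: at 7.50, 7.31 and 6.76 it was at least 1.35-fold higher in Smad2 KO (adjusted p = 0.00215).

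**Figure D3:**
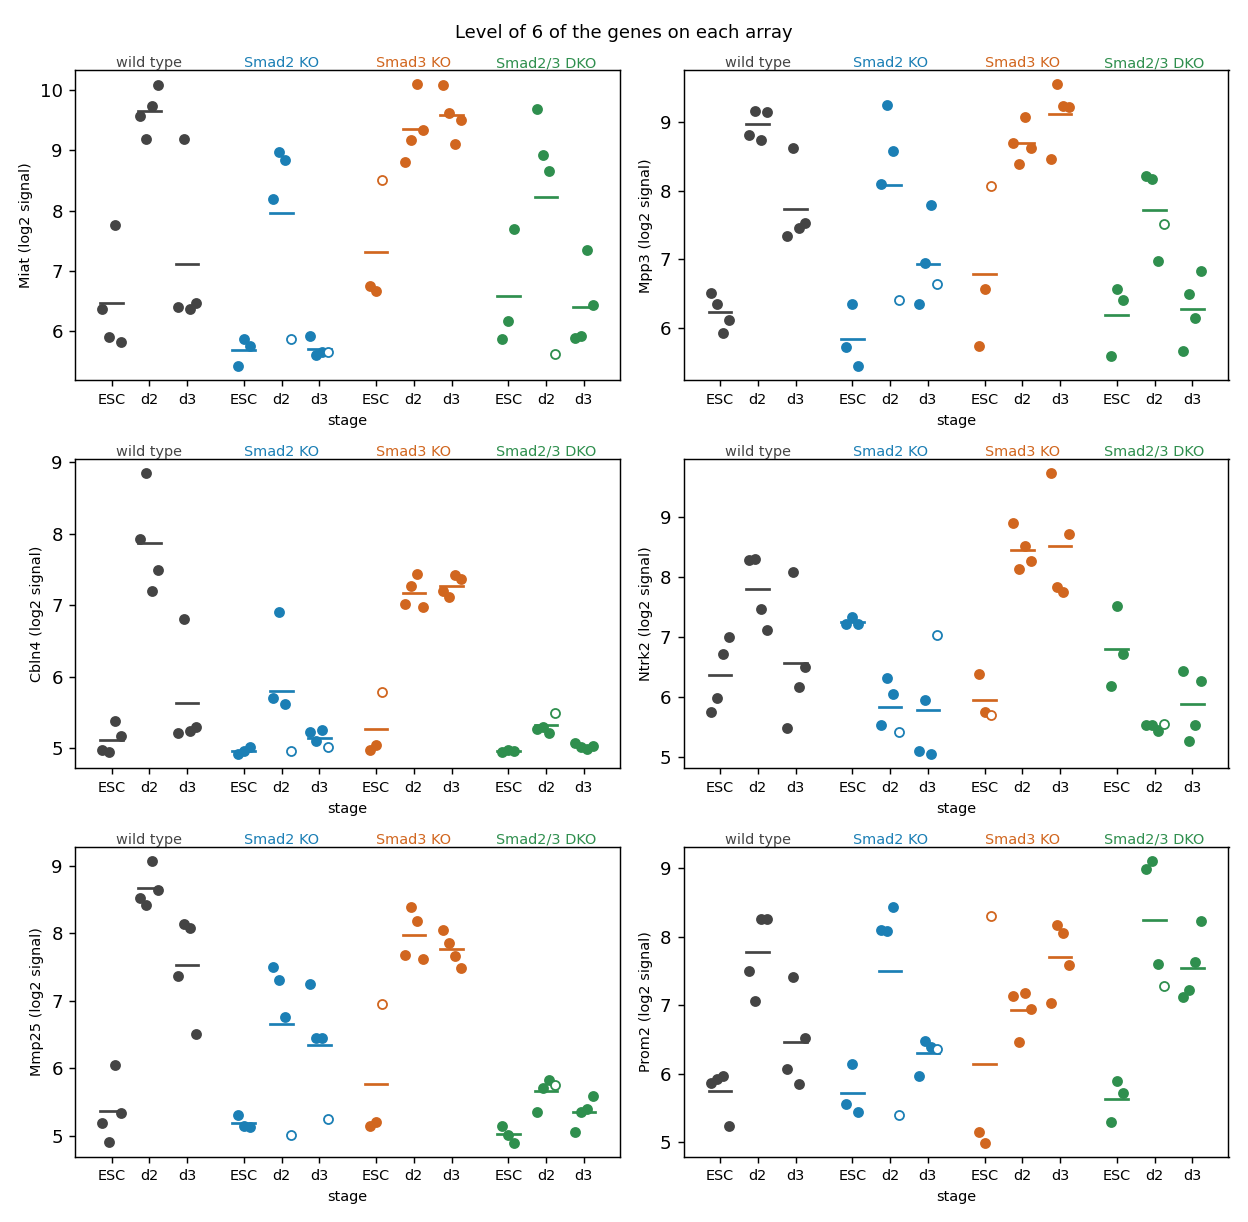
Log2 signal (y axes) of 6 of the 35 genes on each array by genotype and stage (x axes), with lines at the group means and open points for the 4 libraries that stood against their labels. At d3 Miat and Mpp3 lie highest in Smad3 KO and wild type line CCB, Cbln4 and Mmp25 stay near 5 to 6 in Smad2/3 DKO at all stages, Ntrk2 lies lower at d2 than in ESCs in Smad2 KO and Smad2/3 DKO, and Prom2 is highest at d2 in Smad2/3 DKO.

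The fall from d2 to d3 was tested in the same fit, with the d2 arrays that also enter the rise. In Smad2/3 DKO 3 genes fell (Syt4, Gdf1 and Cd6), where 0.519% of all genes fell. In Smad2 KO limma called 0 genes lower, where 0.166% of all genes were called, and in Smad3 KO 0, where 0.0831% were. At an unadjusted p under 0.05 these counts were 11 and 1, for which no share of all genes is given. With single arrays left out the Smad2/3 DKO count was 5 without d2 Smad2/3 DKO replicate 4 or ESC Smad3 KO replicate 4, 1 without d2 Smad2/3 DKO replicate 2 and 0 without d2 replicate 1 or d3 replicate 1, 2 or 3, and the Smad2 KO count was 3 without d2 Smad2 KO replicate 4 and 1 without d2 Smad2/3 DKO replicate 4. When the 4 libraries were set aside, 18 genes fell in Smad2 KO, beside 2.24% of all, and 18 in Smad2/3 DKO, beside 5.03%. In Smad3 KO 0 were then called, beside 1.33%. At an unadjusted p under 0.05 Smad3 KO had 4 genes, again with no share of all genes. The median change was -0.58 in Smad2 KO, -0.90 in Smad2/3 DKO and -0.10 in Smad3 KO (-1.18, -0.98 and -0.10 without the 4 libraries), and in Smad3 KO 16 of the 35 genes were higher at d3 than at d2.

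Syt4 was 7.77, 8.34, 7.39 and 6.78 at d2 in Smad2/3 DKO and 5.40, 5.45, 5.48 and 6.39 at d3, where it was not detected. Each d3 array was below each d2 array, by at least 1.81-fold (adjusted p = 0.0182). In Smad3 KO it was 8.45, 9.21, 8.79 and 8.38 at d2 and 9.41, 8.55, 8.33 and 8.43 at d3, and these ranges overlapped. Gdf1 in Smad2/3 DKO was 10.88, 10.68, 10.03 and 9.85 at d2 and 7.91, 8.87, 8.44 and 9.48 at d3, all below the d2 arrays, and fell by 1.68 ± 0.40 (adjusted p = 0.0286). Cd6 fell there by 1.79 ± 0.46 (adjusted p = 0.0397). Each of these 3 calls was lost when any of 4 or 5 arrays was left out. The 18 genes that fell in Smad2 KO and the 18 in Smad2/3 DKO without the 4 libraries shared 11 (61.1% of each): Miat, Jakmip2, Gdf1, Prss44, Bmerb1, Cd6, Syt4, Mpp3, Prom2, Synm and Rbp7. The same overlap over all genes was not computed.

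The difference in the change from d2 to d3 between knockouts, a test added after the data were seen, called 0 of the 35 genes in each pair with all libraries as labelled. Of all genes 0.104% were called for Smad2/3 DKO against Smad3 KO and 0.0831% for Smad2/3 DKO against Smad2 KO. For Smad2 KO against Smad3 KO 0.0312% were. At an unadjusted p under 0.05 limma had 7, 3 and 5 of the 35 genes in these pairs, with no share of all genes. With the 4 libraries set aside the change was lower in Smad2/3 DKO than in Smad3 KO for 9 genes (beside 4.79% of all called). It was lower in Smad2 KO than in Smad3 KO for 6 (beside 2.39%) and different between Smad2/3 DKO and Smad2 KO for 0 (beside 1.80%). In the last of these pairs 5 genes had an unadjusted p under 0.05, a count given with no share of all genes. Relative to Smad3 KO, the change of Miat differed by -2.93 ± 0.53 in Smad2/3 DKO (adjusted p = 0.00219) and by -3.17 ± 0.55 in Smad2 KO (adjusted p = 0.00112). Bmerb1, Mpp3, Prom2 and Synm were also called in both pairs, Jakmip2, Map7d3, Syt4 and Rbp7 in the first and Ugt8a in the second.

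At d3 the levels themselves set Smad3 KO apart, in a test also added after the data were seen. Compared with Smad3 KO, 19 of the 35 genes were lower in Smad2/3 DKO and 0 higher, where 16% of all genes differed (7.49% lower), and 11 were lower in Smad2 KO and 0 higher, where 10.4% differed (4.62% lower). For 20 genes every Smad2/3 DKO array lay below every Smad3 KO array, as it did for 12.5% of all genes, and for 17 every Smad2 KO array did, beside 8.81% of all genes. The median difference was -1.63 for Smad2/3 DKO and -1.16 for Smad2 KO (-1.05 and -1.07 with undetected genes at their bounds), and that of all genes -0.04 and -0.02. Both pairs share the 4 Smad3 KO arrays. Leaving out the 4 libraries, 27 genes were lower in Smad2/3 DKO and 1 higher (Ldoc1), beside 24.0% of all genes different, and 20 were lower in Smad2 KO, beside 15.5%. No d3 array of Smad2/3 DKO or Smad3 KO was left out, so the differences of that pair stayed the same. Only the spread, estimated over all knockout groups, changed.

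Miat differed most. At d3 it was 5.92, 5.60, 5.65 and 5.66 in Smad2 KO, where it was not detected, 5.88, 5.91, 7.34 and 6.43 in Smad2/3 DKO, and 10.08, 9.63, 9.12 and 9.51 in Smad3 KO. No Smad3 KO array overlapped the others, and Miat was at least 7.70-fold higher than in Smad2 KO (adjusted p = 0.000451) and differed by -3.19 ± 0.65 (log2) in Smad2/3 DKO relative to Smad3 KO (adjusted p = 0.00116). Wild type line CCB (9.19) lay with Smad3 KO, and the other wild type lines (6.39, 6.37 and 6.47) lay with Smad2/3 DKO. Mpp3 was also highest in Smad3 KO, with 8.46, 9.55, 9.23 and 9.22 there, 6.36 to 7.79 in Smad2 KO and 5.66 to 6.83 in Smad2/3 DKO, which differed from Smad3 KO by -2.83 ± 0.48 (adjusted p = 0.000145). Wild type lines other than CCB (7.34, 7.46 and 7.53) lay above Smad2/3 DKO and below Smad3 KO for Mpp3, and CCB (8.62) lay within the Smad3 KO range. Cbln4, not detected in Smad2 KO and Smad2/3 DKO at d3 (5.00 to 5.26 in all 8 arrays), was 7.20, 7.12, 7.42 and 7.37 in Smad3 KO, at least 1.48-fold higher than in Smad2/3 DKO (adjusted p = 2.79e-07) and at least 1.56-fold higher than in Smad2 KO (adjusted p = 2.36e-06).

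By role, 6 of the 10 secreted and surface genes were lower at d3 in Smad2/3 DKO than in Smad3 KO (Cbln4, Mfap3l, Gdf1, Dcn, Cd6 and Ntrk2), 5 of the 7 enzymes and carriers (Ugt8a, Cbr3, a carbonyl reductase, Faah, Mt3, a metallothionein, and Mmp25), 6 of the 11 vesicle, cytoskeleton and signalling genes (Jakmip2, in a call that 25 of 33 arrays left out in turn removed, Bmerb1, Rasd2, Map7d3, a microtubule-binding protein, Syt4 and Mpp3) and 2 of the 7 others (Miat and Hoxb7). Hoxb7, a homeobox gene of the trunk, was the only gene that differed at d3 between Smad2/3 DKO and Smad2 KO as labelled, where 4.36% of all genes did. It was 5.59, 6.34, 5.42 and 6.17 in Smad2/3 DKO, not detected, and 8.29, 7.75, 7.87 and 7.24 in Smad2 KO. The groups did not overlap, and Hoxb7 was at least 2.11-fold higher in Smad2 KO (adjusted p = 0.0166). The count was 0 without d3 Smad2/3 DKO replicate 1 or 3 and 2 without d3 Smad2/3 DKO replicate 2, d3 Smad2 KO replicate 4 or ESC Smad3 KO replicate 4. Without all 4 libraries 5 genes differed in this pair, beside 8.11% of all: Hoxb7, Rasd2 and Mmp25 lower and Tmem54 and Prom2 higher in Smad2/3 DKO.

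**Figure D4:**
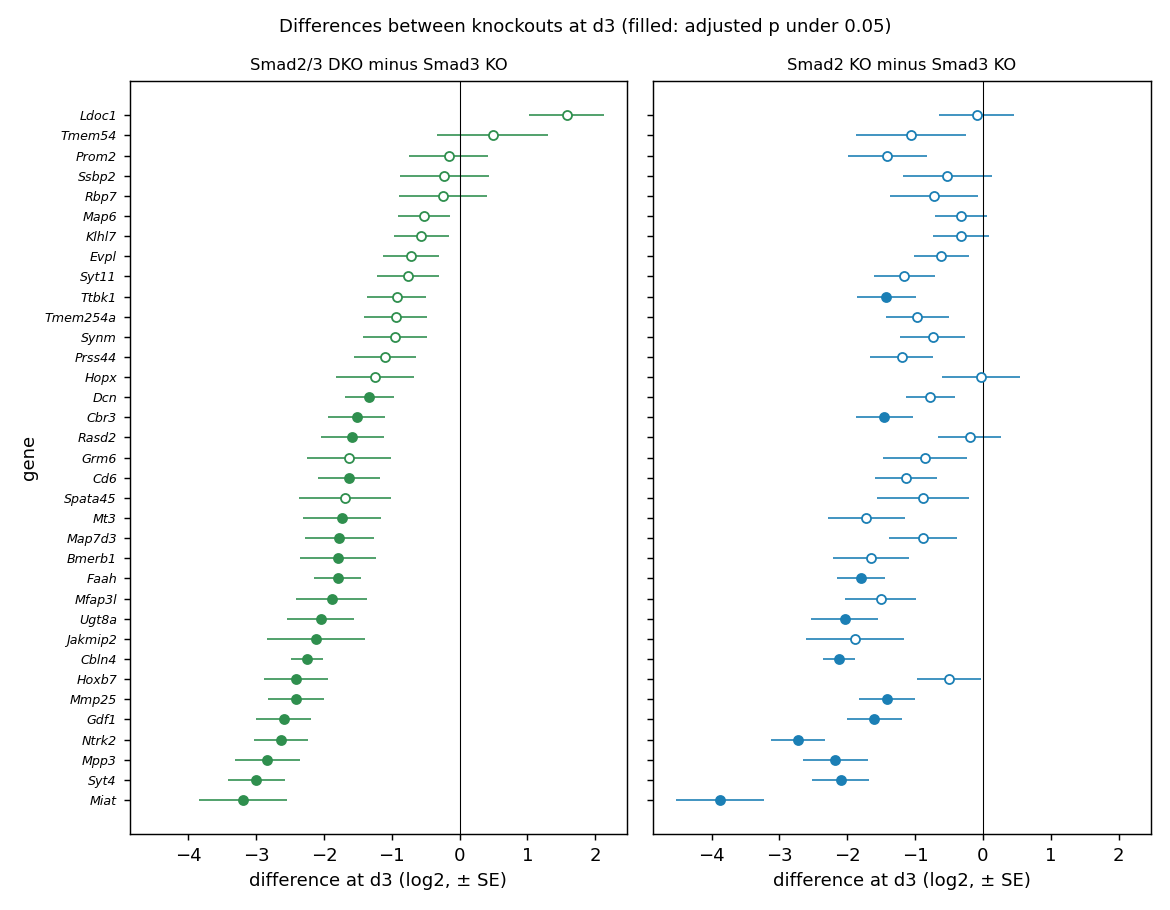
Difference at d3 (x axes, log2, with bars of 1 SE) of each of the 35 genes (y axis) in Smad2/3 DKO (left) and Smad2 KO (right) relative to Smad3 KO, all libraries as labelled, with filled points for adjusted p-values under 0.05. The 19 called genes on the left and the 11 on the right all lie below 0, and Ldoc1 and Tmem54 lie above 0 on the left.

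A few genes stayed high in Smad2/3 DKO at d3. Ldoc1, a small leucine zipper protein derived from a retrotransposon, was 10.61, 7.97, 9.06 and 11.93 in Smad2/3 DKO and 7.41, 8.44, 8.31 and 9.08 in Smad3 KO. These ranges overlapped, and the difference of 1.58 ± 0.57 was called only without the 4 libraries (adjusted p = 0.0493). Tmem54 was 10.54 to 11.01 in Smad2/3 DKO at d3, within the 9.14 to 11.04 of Smad3 KO, and Ssbp2 was 8.91 to 9.13 and 8.90 to 9.78. Prom2 was 7.12 to 8.23 and 7.03 to 8.17. The remaining genes not called between Smad2/3 DKO and Smad3 KO with all libraries as labelled were Rbp7, Map6, which stabilizes microtubules, Klhl7, a Cul3 adaptor, Evpl, Syt11, Ttbk1, Tmem254a, Synm, Prss44, Hopx, Grm6 and Spata45, with differences of -0.24 to -1.69.

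Relative to wild type, whose arrays made the choice, the values are given with no test, and the choice lowers the wild type ESC and d3 means and raises the d2 mean. At d3 all 35 genes were higher in Smad3 KO than in wild type, 23 of them by at least 1, with a median of 1.24 beside 0.01 over all genes. The median was -0.03 in Smad2 KO (-0.18 without replicate 4) and -0.27 in Smad2/3 DKO, where Tmem54, Syt11, Ldoc1 and Prom2 were at least 1 higher and Gdf1, Grm6, Mpp3 and Mmp25 at least 1 lower than in wild type. At d2 the median was -0.14 in Smad3 KO, -1.07 in Smad2 KO (-0.65 without the 4 libraries) and -0.87 in Smad2/3 DKO (-0.60). In ESCs it was -0.03 in Smad2 KO, 0.19 in Smad3 KO (-0.35 without replicate 4) and -0.16 in Smad2/3 DKO.

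Other cell states were measured in the d3 groups as well, and their counts stand beside the shares of all genes called in each direction. Relative to Smad3 KO, 8.56% of all genes were higher and 7.49% lower in Smad2/3 DKO at d3 (12.2% and 11.8% without the 4 libraries, as are the other counts in brackets), and 5.77% were higher and 4.62% lower in Smad2 KO (8.84% and 6.64%). Of 16 tested primitive streak and mesoderm genes 2 were lower in Smad2/3 DKO (Eomes and Gsc) and 0 higher, and without the 4 libraries 6 were lower and 2 higher. In Smad2 KO 5 of the 16 were higher (Mesp1, Wnt3a, Tbx6, Lhx1 and Snai1), and 13 without the 4 libraries. The mean level of the 17 streak genes measured was 6.20 to 8.31 in Smad3 KO, 6.16 to 6.44 in Smad2/3 DKO and 10.16 to 10.46 in Smad2 KO, apart from 5.74 on d3 Smad2 KO replicate 4. Of 12 tested trophectoderm genes 11 were higher in Smad2/3 DKO than in Smad3 KO at d3 (12 without the 4 libraries) and 9 were higher in Smad2 KO (11), with mean levels of 9.85 to 10.79 in Smad2/3 DKO, 8.66 to 9.39 in Smad2 KO, 6.17 to 6.87 in Smad3 KO and 6.72 to 8.0 in wild type, and of their defining markers Elf5 was detected on no d3 array. Of 20 tested formative and primed epiblast genes 10 were lower in Smad2/3 DKO (13) and 6 lower in Smad2 KO (8, with 1 higher), among them Fgf5, Otx2 and Pou3f1 in both. Of 13 tested naive pluripotency genes 6 were higher in Smad2/3 DKO (7) and 5 in Smad2 KO (7, with 1 lower), among them Tbx3 and Zfp42 in both. The part of these cell states in the levels of the 35 genes was not tested.

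**Figure D5:**
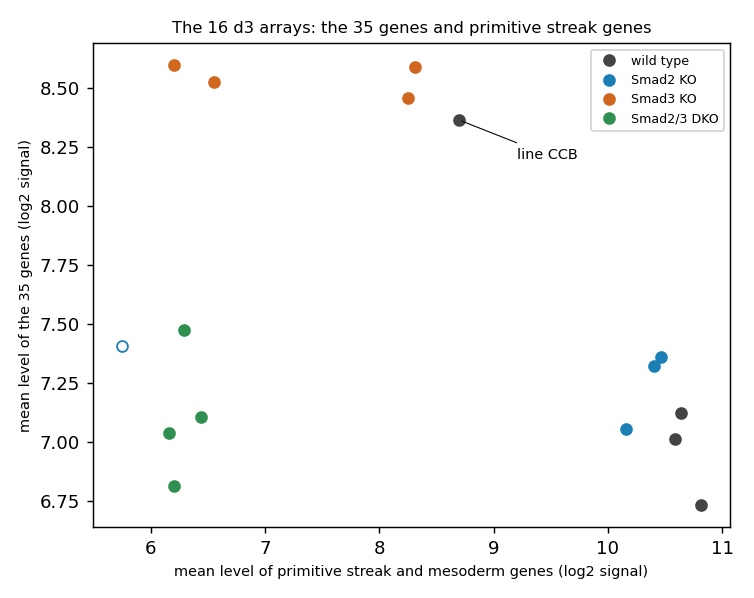
Mean log2 signal of the 35 genes (y axis) against that of 17 primitive streak and mesoderm genes (x axis) on the 16 d3 arrays, coloured by genotype, with an open point for d3 Smad2 KO replicate 4. The Smad3 KO arrays and wild type line CCB lie at the top, at 8.36 to 8.60, and the other arrays lie below 7.50 at both ends of the x axis.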

How the data were processed

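RNA of ESCs, d2 EBs and d3 EBs was hybridized to bead arrays, and the authors extracted the deposited signal, a linear intensity, and the detection p-value, given in steps of 1 in 936 negative control probes, with GenomeStudio 2009.2, per the labels and methods. They left out 3 ESC arrays, not analysed here. The deposited log2 table, which the authors made with the Illumina pre-processing module of arrayanalysis.org (its settings are not given in the sources used here), served to choose the 35 genes. The members, roles and lists were chosen with earlier results of these data known. The 4 libraries that stood against their labels were found from these data.

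Signal was background-corrected and quantile-normalized (neqc, offset 16) with limma 3.58.1 in R 4.3.3, and 16896 of 45281 probes with a detection p-value under 0.01 on at least 3 of 45 arrays were tested. Of all probes 34885 carried 1 symbol, 18 several and 10378 none. Group means of the 33 knockout arrays were fitted with lmFit and eBayes, with Benjamini-Hochberg adjustment over all tested probes. The study's methods compare knockouts with wild type, which here made the choice, so knockouts were compared with each other. Replicates are different lines or clones, and p-values measure the spread between them pooled over all 9 knockout groups. With all libraries as labelled that spread includes the 4 libraries that stood against their labels, also for groups that hold none of them. Where a gene was detected on no array of the lower group, the fold is a lower bound: the mean of the higher group against, per array, the higher of the gene's signal and the lowest signal among detected probes. Scripts were tested on simulated data. Named genes are the 10 tallest peaks, the 4 largest changes or smallest p-values of each comparison, members of the lists, those nearest the threshold and any count of 5 or fewer, and others were named after their values were seen. Arrays had a median signal between 111 and 243 and 11338 to 14256 detected probes, and the number of arrays limits the precision. Clone names pair arrays across stages of the same clone (30 pairs, median correlation of deviations 0.12, 17 over 0.1), and replicate numbers do not (123 pairs, median -0.03). Alternatives tried were another normalization, scaling, filter, probe choice, threshold and set of arrays, blocks, and each array left out. Promoters are RefSeq, GRCm38.p6. Figures were drawn with matplotlib 3.10.9 in Python 3.11.15.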

Additional observations from a re-analysis of the deposited data

Results flagged for a closer look

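Single arrays far from the other 3 of their group stood out in 21 of 189 groups of 4 arrays tested, which were the 9 groups of 4 for each of 20 named genes and for the mean of the 35 genes, where chance gives about 1 in 20 groups. The genes share the same arrays, so these groups are not independent. An odd array can be marked for several genes, and the count cannot be weighed against that rate. Wild type line CCB at d3 was high for Miat (9.19), Cbln4 (6.81), Ttbk1 (8.23), Mpp3 (8.62) and Dcn (7.17). Replicate 4 of d2 Smad2 KO was low for Tmem54 (6.25), Ttbk1 (6.20), Jakmip2 (5.21), Prom2 (5.39) and Rbp7 (6.35). Replicate 4 of d3 Smad2/3 DKO was high for Mfap3l (7.47), Syt4 (6.39) and Cd6 (6.78). The others were d2 Smad3 KO replicate 2 for Tmem54 (9.88) and Spata45 (8.46), wild type ESC line CCF for Prom2 (5.24) and Syt4 (6.59), d2 Smad2/3 DKO for Tmem254a (replicate 2, 8.47) and Ntrk2 (replicate 3, 5.43), d3 Smad2/3 DKO replicate 3 for Jakmip2 (8.04) and d3 Smad2 KO replicate 1 for Gdf1 (8.72), all of them low except Jakmip2.

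The rise from ESCs to d2 differed between knockouts by the test of the difference itself. Relative to Smad3 KO, the Smad2/3 DKO rise differed by -3.79 for Ntrk2 and -1.55 for Cbln4 (-3.69 and -1.86 without the 4 libraries that stood against their labels, and -2.19 for Mmp25). The Smad2 KO rise differed from that of Smad3 KO by -3.92 for Ntrk2 (-3.66 without the 4 libraries), and without them by -2.36 for Tmem54, -1.74 for Tmem254a, -2.41 for Dcn and -1.94 for Syt4. The change from d2 to d3 differed from that in Smad3 KO only without the 4 libraries. In Smad2/3 DKO the difference was -2.93 for Miat, -1.72 for Jakmip2, -2.01 for Bmerb1, -2.08 for Map7d3, -2.12 for Syt4, -1.93 for Mpp3, -1.79 for Prom2, -2.12 for Synm and -2.13 for Rbp7. In Smad2 KO it was -3.17 for Miat, -2.05 for Ugt8a, -1.84 for Bmerb1, -2.03 for Mpp3, -2.69 for Prom2 and -1.83 for Synm.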

How the results depend on the processing

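Over 8 settings and 33 single arrays left out, 2242 of 2501 values of the 61 named gene calls kept their side of the threshold, 259 lost it and 0 changed direction. The counts of genes were less stable. All knockout groups share 1 estimate of spread per gene, so each knockout array enters every count, and other reasons were not tested beyond the libraries left out. Without the 4 libraries that stood against their labels, genes called higher at d2 than in ESCs were 24 in Smad2 KO, 30 in Smad3 KO and 22 in Smad2/3 DKO, genes lower at d3 were 18 in Smad2 KO and 18 in Smad2/3 DKO, and genes different at d2 were 11 (Smad2/3 DKO minus Smad3 KO), 1 (Smad2/3 DKO minus Smad2 KO) and 8 (Smad2 KO minus Smad3 KO). The rise then differed for 5 genes between Smad2 KO and Smad3 KO, the change to d3 for 9 (Smad2/3 DKO minus Smad3 KO) and 6 (Smad2 KO minus Smad3 KO), and the d3 level for 5 (Smad2/3 DKO minus Smad2 KO) and 20 (Smad2 KO minus Smad3 KO). The Smad2 KO rise had 2 genes in the deposited table and 2 with no background correction, 4 with all 45 arrays in the fit and 5 with clone as a replicate block, and the Smad3 KO rise had 9 genes with median scaling and 9 with no filter. The Smad2/3 DKO rise had 5 genes with no filter and 6 with the replicate number as a block, and its fall had 0 with median scaling and 1 with no filter. The difference of the rise between Smad2/3 DKO and Smad3 KO had 1 gene in place of 2 in the deposited table, with no background correction, with median scaling, with no filter, with the number as a block and with all 45 arrays. With no background correction 9 genes differed at d2 between Smad2/3 DKO and Smad3 KO and 5 between Smad2 KO and Smad3 KO, and with all 45 arrays 2 differed at d3 between Smad2/3 DKO and Smad2 KO. The clone block and the number block moved no other count by over 1.5 times. Median scaling moved the median of all genes by 0.15, -0.12 and 0.10 in the rise (Smad2 KO, Smad3 KO, Smad2/3 DKO). For Smad2/3 DKO and Smad2 KO minus Smad3 KO it moved it by 0.19 and 0.11 at d2, 0.22 and 0.28 in the difference of the rise and 0.12 and 0.16 at d3, where 14 and 8 of the 35 genes were then lower, and by -0.11 in the change to d3 of Smad2/3 DKO minus Smad2 KO.

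With a threshold of 1.5 there were 8 members, and the counts were 0, 5 and 4 for the rise (Smad2 KO, Smad3 KO, Smad2/3 DKO), 0 for the Smad2/3 DKO fall, 1 and 1 at d2 (Smad2/3 DKO and Smad2 KO minus Smad3 KO), 1 and 0 for the difference of the rise, and 4, 0 and 4 at d3 (Smad2/3 DKO minus Smad3 KO, Smad2/3 DKO minus Smad2 KO, Smad2 KO minus Smad3 KO), being fewer genes tested. With 1 array left out the rise counts ran from 0 to 21 in Smad2 KO, 4 to 26 in Smad3 KO and 3 to 20 in Smad2/3 DKO, lowest without ESC Smad2 KO replicate 2 and 3 others, ESC Smad3 KO replicate 2 or 3 and ESC Smad2/3 DKO replicate 4. The fall counts ran from 0 to 3, 0 to 0 and 0 to 5. Between Smad2/3 DKO and Smad3 KO, Smad2/3 DKO and Smad2 KO, and Smad2 KO and Smad3 KO, the d2 counts ran from 4 to 8, 0 to 0 and 3 to 5, those of the difference of the rise from 1 to 2, 0 to 0 and 1 to 2, those of the change to d3 from 0 to 0 in each, and the d3 counts from 14 to 21, 0 to 2 and 9 to 16. The number of members ran from 27 to 63 with 1 wild type line left out.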
